A study of Rattus norvegicus with 2 samples.

Results

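The transcripts of the mitochondrial respiratory chain and ATP synthase were compared between 2 cultures of rat cells labelled as endothelial. The cells came from the endocardium, the lining of the heart chambers, and from the aorta. Members were the probe sets whose annotation gave a single gene symbol of complexes I to V (names starting with Nduf, Sdh, Uqcr, Cox4 to Cox8 or Atp5, with Cyc1 and Cycs), leaving out Ndufa4l2. This gave 54 genes on 96 probe sets, out of 4736 genes on 7006 probe sets with a single symbol. Complex I had 26 member genes, complex II 1 (Sdha), complex III 4, complex IV 13 and complex V 10.

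Both origins came from the same 2 rats, no treatment was named in the labels, and the cells of each origin were pooled and grown for 2 passages. Total RNA of each pool was hybridised to 1 Affymetrix rat genome array (RG_U34A), on which sets of short probes each report an intensity for a transcript. There were thus 2 groups, aortic and endocardial, of 1 array each: without replicates, no difference could be tested. Strain, age and sex are not given in the sources used here.

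The respiratory chain sits in the inner mitochondrial membrane. Complex I takes electrons from NADH and complex II from succinate, complex III passes them to cytochrome c, and complex IV, cytochrome c oxidase, hands them to oxygen. Proton pumping by complexes I, III and IV drives ATP synthase, complex V. The nuclear genes measured here encode most subunits, some of complex IV exist as tissue isoforms, and cultured endothelial cells are known for drawing much of their ATP from glycolysis.

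The chain was nearly level between the 2 arrays. Of 54 member genes, 51 were measured, that is, above a floor of 635.4 (the median scaled intensity) on at least 1 array. Of these, 1 had an endocardial value at least 2-fold higher (Cox6a2, the muscle isoform of a complex IV subunit) and 0 at least 2-fold lower, against 5.93% and 4.16% of the 2935 measured genes of the array. Differences of under 1.5-fold made up 48 of 51 members (94.1%) and 75.7% of all measured genes. The median log2 ratio, endocardial over aortic, was -0.09 over the members and -0.02 over all measured genes, and 31 of 51 members (60.8%) lay below 0, as did 52.3% of all measured genes.

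Bright probe sets vary less than dim ones, and members were bright: 46 of 51 had median intensities on both arrays above 1742, the brightest value of 38 background controls on either array, called the control maximum from here on. With the floor raised to the control maximum, 0 of 48 measured members were at least 2-fold higher and 0 at least 2-fold lower, against 3.99% and 2.36% of 1904 genes. Among the 1453 genes of the array with such intensities, 85.2% differed by under 1.5-fold, against 45 of 46 members (97.8%). With probe sets above 5000 on both arrays, a limit chosen after the data were seen, the shares were 90.7% of 708 genes and all 40 members. At that brightness 1.41% of genes were at least 2-fold higher, 1.41% were at least 2-fold lower, and the SD of the log2 ratios was 0.25 over members and 0.39 over all genes. No test of the difference between members and other genes was made.

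**Figure D1:**
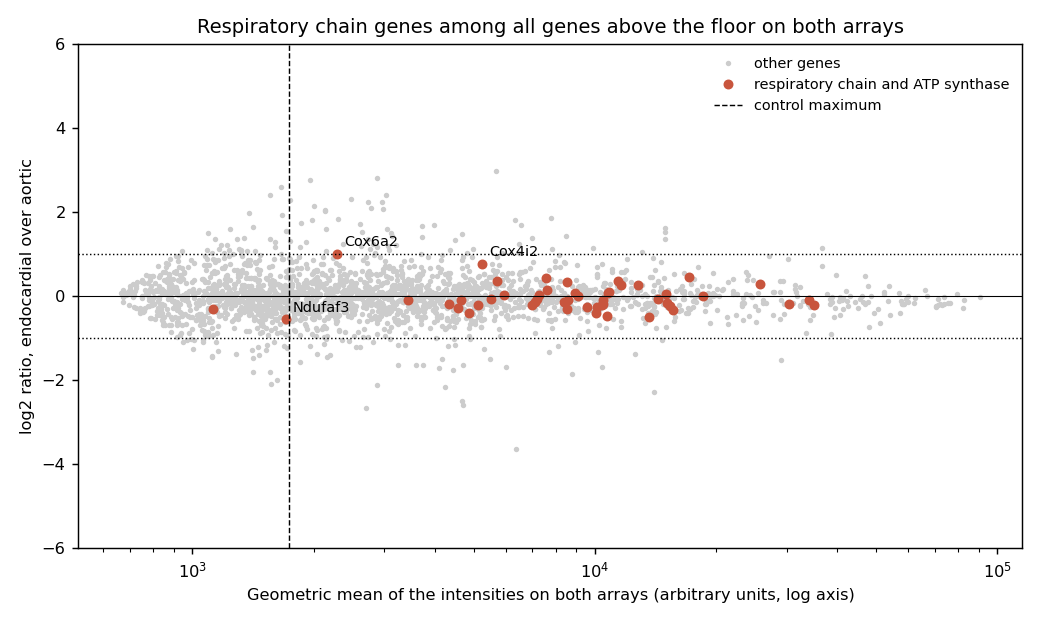
Each point is a gene whose kept probe sets were all above the floor on both arrays, with the geometric mean of its intensities on the x axis (arbitrary units, log axis) and the log2 ratio, endocardial over aortic, on the y axis. Red points are respiratory chain and ATP synthase genes, grey points all others, dotted lines mark 2-fold, and the dashed line marks the control maximum (1742); the red points lie in a narrow band around 0, with Cox6a2 at 1.01 and Cox4i2 at 0.77.

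Some probe sets of the same gene gave different values. Variation between cultures or arrays of the same origin could not be measured. Of 22 member genes with more than 1 probe set that exceeded the floor on each array (52 probe sets), 12 had all probe sets on 1 side of 0, 8 lower and 4 higher, and 10 had probe sets on both sides. The pooled SD of log2 ratios between probe sets of the same member gene was 0.31, or 0.22 without Ndufaf3, and the SD between all measured member genes was 0.32. The first 2 values are of single probe sets and the last of gene medians, so they are not on equal terms. Probe sets of a gene share the RNA and the array, so they do not stand in for replicates, and 29 members rested on 1 probe set.

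The promoters of 3 members are shown because they span the members' range: Cox8a, whose 4 probe sets were all higher on the endocardial array, Cox6a2, the highest member, and Atp5po, the lowest structural subunit. Each line gives the 250 bases before the annotated start from RefSeq (GRCr8), 5′ to 3′, at chr1:213833624-213833873 on the minus strand for Cox8a, chr1:192219717-192219966 on the minus strand for Cox6a2 and chr11:44657484-44657733 on the minus strand for Atp5po. Capitals mark matches, on either strand, to an ETS-type motif (CCGGAAG) in Cox8a, the MEF2 consensus in Cox6a2 and an NRF-1-type motif (GCGCANGCG) in Atp5po, where the matches of both strands overlap. NRF-1 and the ETS factor GABP are known regulators of nuclear respiratory genes, and MEF2 of muscle genes.
Cox8a: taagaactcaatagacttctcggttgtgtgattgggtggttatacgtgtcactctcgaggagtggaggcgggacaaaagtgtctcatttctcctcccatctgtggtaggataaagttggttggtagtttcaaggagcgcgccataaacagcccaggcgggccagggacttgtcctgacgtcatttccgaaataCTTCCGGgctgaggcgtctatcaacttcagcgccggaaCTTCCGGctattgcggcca
Cox6a2: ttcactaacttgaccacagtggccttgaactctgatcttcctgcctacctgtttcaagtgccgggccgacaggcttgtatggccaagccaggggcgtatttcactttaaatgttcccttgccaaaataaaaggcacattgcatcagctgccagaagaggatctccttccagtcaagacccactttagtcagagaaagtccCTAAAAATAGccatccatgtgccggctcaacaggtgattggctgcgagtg
Atp5po: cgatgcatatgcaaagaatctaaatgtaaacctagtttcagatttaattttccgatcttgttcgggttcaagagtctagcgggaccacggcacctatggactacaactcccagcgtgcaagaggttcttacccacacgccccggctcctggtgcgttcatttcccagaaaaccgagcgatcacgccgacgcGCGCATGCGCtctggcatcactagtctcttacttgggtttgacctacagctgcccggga
Promoter entries were found for 45 of 54 members. The ETS-type letters occurred in 8 of 45 member promoters (17.8%) and 7.27% of all 33469 promoters of this length. The 8 were Atp5f1a, Atp5pf, Cox5b, Cox8a, Ndufa6, Ndufs1, Ndufs8 and Uqcrc2. The NRF-1-type letters occurred in 7 of 45 (15.6%) and 5.09%, the 7 being Atp5po, Cox7a2l, Ndufa5, Ndufa6, Ndufs6, Ndufv3 and Sdha. A relation of motif to log2 ratio was not tested. The MEF2 consensus was found in 1 of 45 (2.22%), Cox6a2, and 2.96%. A YY1-type motif (AAGATGGC) was found in 1 of 45 (2.22%) and 1.63%, and a TATA motif (TATAAA) in 2 of 45 (4.44%) and 12.9%. These are matches of letters, with no binding measured, and the promoters compared with include those of genes outside mitochondria and of non-coding genes.

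Most complex I subunits had slightly lower endocardial values, and none reached 2-fold. Among all measured genes, 5.93% were at least 2-fold higher and 4.16% at least 2-fold lower. Of 26 complex I members, grouped by symbol and all measured, 18 lay below 0 and 8 above, with a median log2 ratio of -0.11. Over all measured genes 52.3% lay below 0, with a median of -0.02, and the difference was not tested. Ndufb5, Ndufb8, Ndufc1, Ndufs4, Ndufs8 and Ndufaf3 took the other sign under at least 1 other way of processing, so these counts are not fixed. Without the assembly factor Ndufaf3, 17 of 25 lay below 0, with a median of -0.10. The core subunits, which carry the iron-sulphur clusters and the sites of electron transfer, were represented by 4 genes, all below 0. Ndufv2, an iron-sulphur subunit of the flavoprotein part, had intensities of 11046 in aortic and 9251 in endocardial cells (log2 ratio -0.26). Ndufs7, near the ubiquinone site, had 4626 and 4066 (-0.19), and Ndufs8, also an iron-sulphur subunit, had 3508 and 3353 (-0.08), with probe sets at -0.26 and 0.09. Ndufs1, the largest core subunit, stayed below the control maximum throughout (1254 and 1011), so its ratio of -0.31 shows neither equal nor different expression.

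The 21 supernumerary subunits of complex I, which surround the core and serve assembly and stability, had a median of -0.09, with 13 below 0. By its symbol, Ndufa4, now assigned to complex IV, was counted among them. The lowest was Ndufb2, at 12635 in aortic and 9081 in endocardial cells (-0.48, or 1.39-fold lower). Ndufa8 stood at 5603 and 4242 (-0.40), and Ndufb9 at 17531 and 13948 (-0.33). All 3 rested on 1 probe set, with both values above the control maximum.

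Also below 0 were Ndufa5 (-0.30), Ndufa9 (-0.28), Ndufb3 (-0.21) and Ndufa6 (-0.21, with 1 of its 2 probe sets under the control maximum). Ndufab1, the mitochondrial acyl carrier protein, had -0.13, from 2 probe sets at -0.15 and -0.12. Ndufb6 had a median of -0.22, but its 2 probe sets lay at -0.66 and 0.22, so the gene has no settled direction. Ndufc1 (-0.10, probe sets at -0.31 and 0.11) also had probe sets on both sides of 0. Ndufb10 (-0.09), Ndufs6 (-0.09) and Ndufb11 (-0.07) were close to level.

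Ndufb1 (0.002), Ndufc2 (0.01) and Ndufb5 (0.02) were level to within 2%, the last from probe sets at -0.11 and 0.15. Ndufb8 had 3 kept probe sets from -0.32 to 0.43 around a median of 0.07, and Ndufs4, needed for a late step of assembly, had 2 at -0.05 and 0.33. The highest supernumerary subunit above the floor on both arrays was Ndufa3, at 5063 in aortic and 6461 in endocardial cells (0.35). Ndufa4, named as a complex I gene but now assigned to complex IV, stood at 11748 and 14019 (0.26). Ndufv3 was under the floor on the aortic array and at 766 on the endocardial array, under the control maximum on both.

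Ndufaf3, an assembly factor of complex I, had the most discordant probe sets of any member, the only ones over 2-fold apart. One went from 2730 in aortic to 5271 in endocardial cells (0.95), another from 2111 to 1381 (-0.61) and the last from 1731 to 1188 (-0.54). The median of -0.54 is therefore no description of the gene, and with the brightest probe set alone the log2 ratio was 0.95. Only the higher probe set exceeded the control maximum on both arrays.

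Complex II was represented by Sdha, the flavoprotein of succinate dehydrogenase, at 7347 in aortic and 7033 in endocardial cells (-0.06). In complex III the 4 measured genes went both ways, with a median of 0.02. Cyc1, the haem protein that reduces cytochrome c, was the lowest, at 11635 and 8739 (-0.41). Uqcrc2, a core protein of the matrix side, was the highest, at 6509 and 8776 (0.43). Uqcrfs1, the Rieske iron-sulphur protein, had a median of -0.06 from 3 probe sets between -0.18 and 0.13, and the small subunit Uqcr11 had 0.10 from probe sets at 0.06 and 0.15. Cyc1 and Uqcrc2, subunits of the same complex, thus lay on opposite sides by similar amounts, each on 1 probe set.

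Complex IV was the only complex with most measured members above 0, 7 of 10, and its median log2 ratio was 0.18. It held the 3 members with ratios of 1.5-fold or more, Cox6a2, Cox4i2 and, against the floor, Cox6c. Cox6c, also counted among the 7, was under the control maximum on both arrays, so its ratio does not show a difference. The median was 0.49 over plain probe sets alone (7 genes) and 0.08 with the floor at the control maximum (9 genes), and lay between these values over the alternatives. No test of complex IV against the other complexes was made.

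Among the general subunits of complex IV, Cox8a, the smallest, was higher on all 4 of its probe sets. The probe sets went from 13646 in aortic to 19144 in endocardial cells (0.49), from 14635 to 18436 (0.33), from 33835 to 39938 (0.24) and from 33536 to 35872 (0.10). The median was 0.29, and every value exceeded the control maximum. Cox6b1, on the intermembrane side, had a median of 0.36, from 6155 to 9273 on one probe set (0.59) and from 14519 to 15833 on the other (0.12).

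Cox4i1, the general isoform of the regulatory subunit that binds ATP, was lower on all 3 of its probe sets, which spanned only -0.21 to -0.17. Its median intensities were 37677 in aortic and 32628 in endocardial cells. Cox6a1, the general isoform of its subunit, had 35161 and 33006 (-0.09), with probe sets between -0.10 and -0.003. Cox5b, which binds zinc, was at 0.04, with probe sets at -0.11 and 0.18, and Cox7b at 0.08. Cox7a2l, which takes part in joining complexes III and IV into supercomplexes, was lower on both probe sets (-0.28 and -0.18). Cox8a and Cox4i1, both nuclear subunits of the same enzyme, thus had probe sets entirely on opposite sides of 0, and both differences were under 1.5-fold.

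Tissue isoforms of complex IV gave the largest ratios and some of the dimmest values. Cox4i2, the isoform of lung and of cells in low oxygen, had 4006 in aortic and 6834 in endocardial cells on its single probe set, 1.71-fold higher (0.77). Both values exceeded the control maximum, while the general counterpart Cox4i1 was at -0.21. Cox6a2, the isoform of heart and skeletal muscle, had 1608 and 3242 on 1 probe set, 2.02-fold higher (1.01). The aortic value lay under the control maximum, and against that control the difference was at least 1.86-fold. Its other 2 probe sets were below 0 on both arrays. The muscle isoform Cox8b was below the floor in both cultures with both of its probe sets (at most 259), as was Cox5a with its only probe set of a single symbol, and the pseudogene Cox6c-ps1. Cox6c was under the floor on the aortic array (239) and at 956 on the endocardial array, under the control maximum on both, so its bound against the floor does not show a difference.

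Markers of heart muscle cells were looked at beside Cox6a2. Of 15 such genes on the array, not counting Cox6a2 and Cox8b, 8 were measured. Their summed median intensities, with values under the floor set to it, were 10455 in aortic and 10940.1 in endocardial cells, and 2 of the 8 in aortic and 3 in endocardial cells exceeded the control maximum. With Cox6a2 counted, 7 of 9 measured genes lay above 0 and 2 below. Tnni3 (2176 and 2416, 0.15) and Fabp3 (1872 and 2651, 0.50) were higher in endocardial cells and exceeded the control maximum on both arrays. Atp2a2 had 1598 and 1875, and the troponin Tnnt2 had 866 and 1071. The 2 lower genes were the cardiac myosin Myh6 (1589 and 569, with the control maximum above both) and the natriuretic peptide gene Nppa (853 and 753). The defining markers Actc1, Myl2, Myl3, Ckm, Pln, Ryr2 and Nppb stayed below the floor in both cultures. Their part in the Cox6a2 value was not tested, and in RNA of a whole culture fewer cells of a type and less RNA per cell cannot be told apart.

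ATP synthase genes also went both ways. Of 10 complex V members, all measured and none past 1.5-fold, 7 lay below 0, and the median was -0.16. Among all measured genes, 75.7% were within 1.5-fold and 52.3% lay below 0. The catalytic F1 part was represented by all of its subunits, alpha to epsilon, of which 4 of 5 were slightly lower. Atp5f1b, the catalytic beta subunit, had 32468 in aortic and 28314 in endocardial cells (-0.20), Atp5f1c of the central shaft -0.19, Atp5f1e -0.16 and Atp5f1d -0.15, the last with probe sets at -0.31 and 0.01. Atp5f1a, the alpha subunit that alternates with beta in the same ring, stood on the other side, at 10599.9 and 12687 (0.26) on 1 probe set.

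The 4 subunits of the peripheral stalk, which holds F1 still against the rotor, had the widest range within complex V. Atp5po, the oligomycin sensitivity protein at the top of the stalk, was the lowest, from 15160 in aortic to 9946 in endocardial cells on one probe set (-0.61) and from 17254 to 13089 on the other (-0.40). Atp5pb, the long stalk subunit, was the highest, from 14632 to 20134 (0.46, or 1.38-fold higher) on 1 probe set. Atp5pf, coupling factor 6, was higher on both probe sets (0.37 and 0.30), and Atp5pd was level at 18668 and 18544 (-0.01). Atp5if1, the inhibitor that stops the enzyme from burning ATP when the chain fails, was lower on all 3 kept probe sets (-0.16 to -0.39), with median intensities of 10111 and 9057. All kept probe set values of complex V exceeded the control maximum on both arrays.

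**Figure D2:**
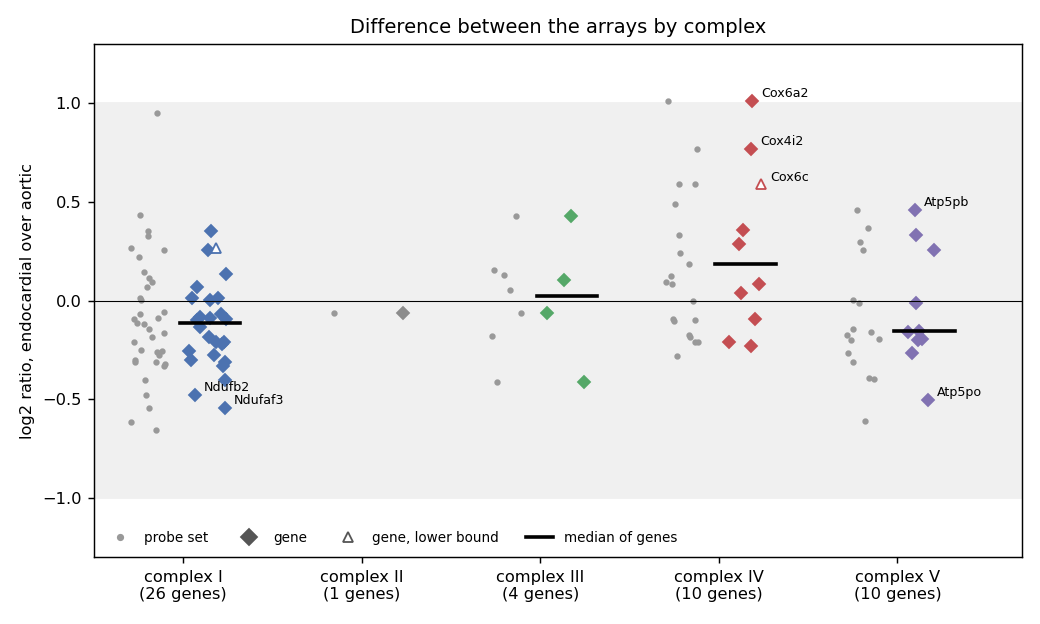
The log2 ratio, endocardial over aortic, is on the y axis and the complex on the x axis. Grey dots are kept probe sets, diamonds are genes, open triangles are genes whose ratio is a lower bound, black bars are medians of genes, and the shaded band marks under 2-fold; complex I and V medians lie at -0.11 and -0.16 and the complex IV median at 0.18, within a wide overlap of genes.

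**Figure D3:**
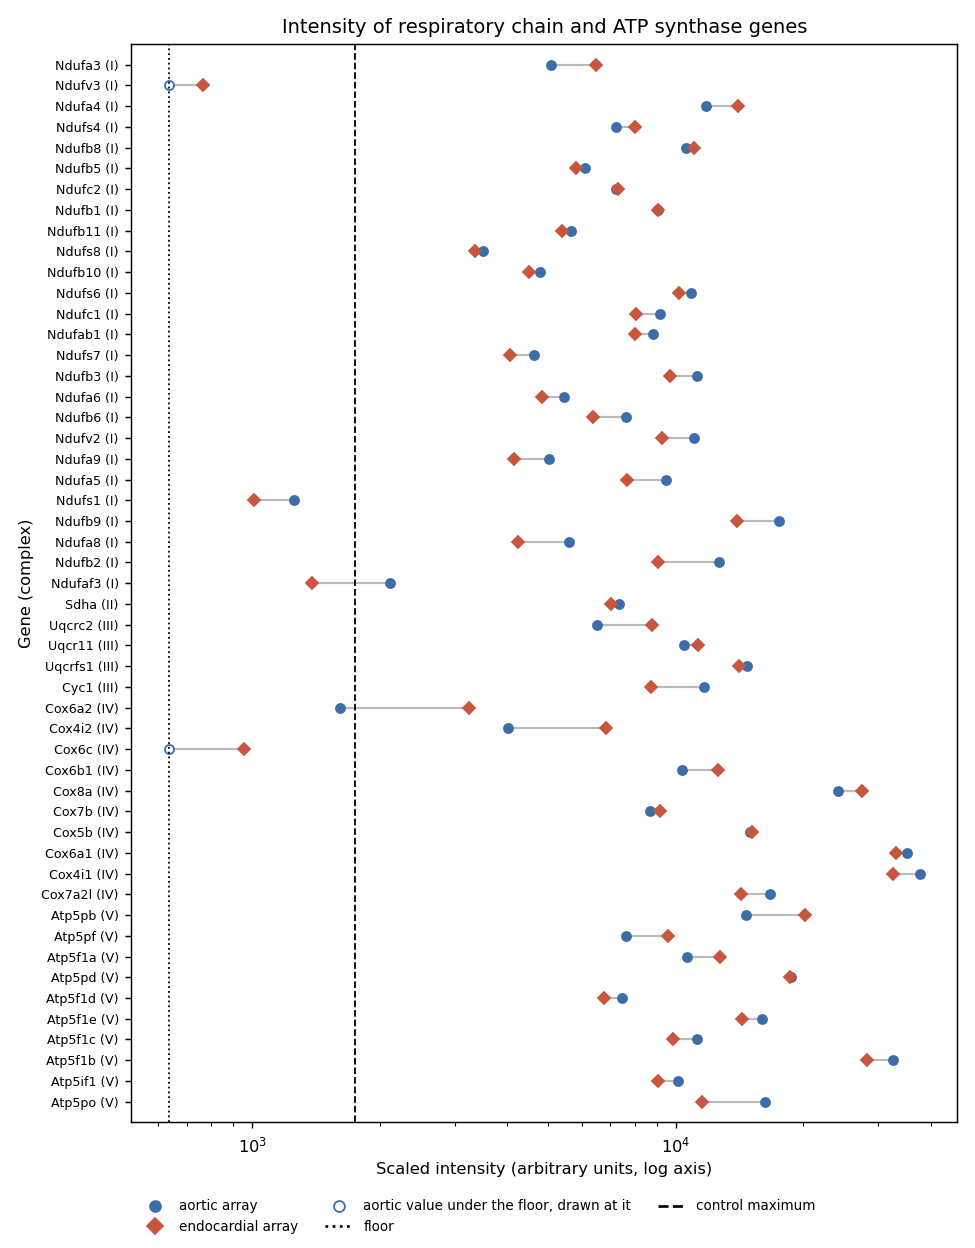
Median scaled intensity of each measured member (x axis, arbitrary units, log axis) on the aortic array (circles) and the endocardial array (diamonds), with genes ordered by log2 ratio within each complex on the y axis. Open circles are aortic values under the floor, drawn at it, the dotted line is the floor (635.4) and the dashed line the control maximum (1742); 46 of 51 genes have both values to the right of the dashed line.

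Not every probe set of a member gave a signal. Of the 96, 79 were above the floor on both arrays, 2 on the endocardial array alone and 15 on neither. Of those 15, 11 belonged to 9 genes that had another, brighter probe set. Ndufs8 had a probe set at -10582 in aortic and -5944 in endocardial cells beside 2 others at 3349 and 3666 on the aortic array, and Cox6a1 had one at 1057 and 1055 beside 2 others at 35161 and 40708 on the aortic array. A dim probe set of a member thus did not show that its gene gave no signal. A further 7 probe sets named a chain gene together with another symbol and were not used, among them the only one naming Cycs.

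Genes around the chain were described through 5 lists. In the list of assembly factors, 2 of 26 genes were measured, Sdhaf2 (-0.14) and Tmem126b (0.01). In the list of substrate supply, pyruvate dehydrogenase, the citric acid cycle and other donors of electrons, 15 genes were measured, of which 0 were at least 2-fold higher and 2 at least 2-fold lower, against 5.93% and 4.16% of all measured genes, with a median of -0.04. The highest was Idh2, at 3898 in aortic and 5594 in endocardial cells (0.85), but its probe sets lay at -0.05 and 1.76. Citrate synthase, Cs, was at 0.24, the cycle enzyme Mdh2 at 0.04, the pyruvate dehydrogenase kinase Pdk2 at 0.03 and the succinate-CoA ligase Suclg1 at -0.01. Pdk2 was under the control maximum on both arrays (1410 and 1435), so its ratio shows neither equal nor different expression. The lower genes were Pdk1, the kinase that switches off pyruvate dehydrogenase (2332 in aortic and 1094 in endocardial cells, -1.09), and Gpd2, the mitochondrial glycerol phosphate dehydrogenase (1679 and 781, -1.10). Gpd2 was under the control maximum on both arrays, and against that control Pdk1 was at least 1.34-fold lower.

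In the list of exchange across the mitochondrial membranes, 12 genes were measured and none reached 2-fold, with a median of 0.06. Of all measured genes, 5.93% were at least 2-fold higher and 4.16% at least 2-fold lower. The adenine nucleotide translocases Slc25a4 (-0.14) and Slc25a5 (0.04), the phosphate carrier Slc25a3 (0.09), the pyruvate carrier Mpc1 (0.03) and the outer membrane channel Vdac1 (-0.04) were close to level. The uncoupling protein homologue Ucp2 had 3043 in aortic and 5708 in endocardial cells (0.98, probe sets at 0.84 and 1.12). The citrate carrier Slc25a1 had 3415 and 6511 (0.93), and Tspo of the outer membrane had 15861 and 10956 (-0.53).

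In the list of biogenesis, import and protein quality, 12 genes were measured, none past 1.5-fold, and 9 lay below 0, with a median of -0.19. Of all measured genes, 75.7% were within 1.5-fold and 52.3% lay below 0. The mitochondrial chaperone Hspa9 had 18906 in aortic and 13186 in endocardial cells (-0.51), Hspd1 was at -0.20, the import receptor Tomm20 at -0.21 and the elongation factor Tufm at -0.26. Timm44 (0.11) and Dnm1l (-0.11) were nearest to 0, but both were under the control maximum on both arrays, so their ratios show neither equal nor different expression. In the list of antioxidant and apoptosis partners, 13 genes were measured, with a median of -0.02, and 1 was at least 2-fold higher, against 5.93% of all measured genes. This was Diablo, the inhibitor of apoptosis antagonist released from mitochondria, at 1454 and 6074 on 1 probe set, at least 3.49-fold higher against the control maximum. Sod2, the superoxide dismutase of the matrix, had 10190.0 and 5997 (-0.76) and the transhydrogenase Nnt was at -0.02. Txnrd2, the mitochondrial thioredoxin reductase, was at 207 and 655, and so below the control maximum throughout.

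**Figure D4:**
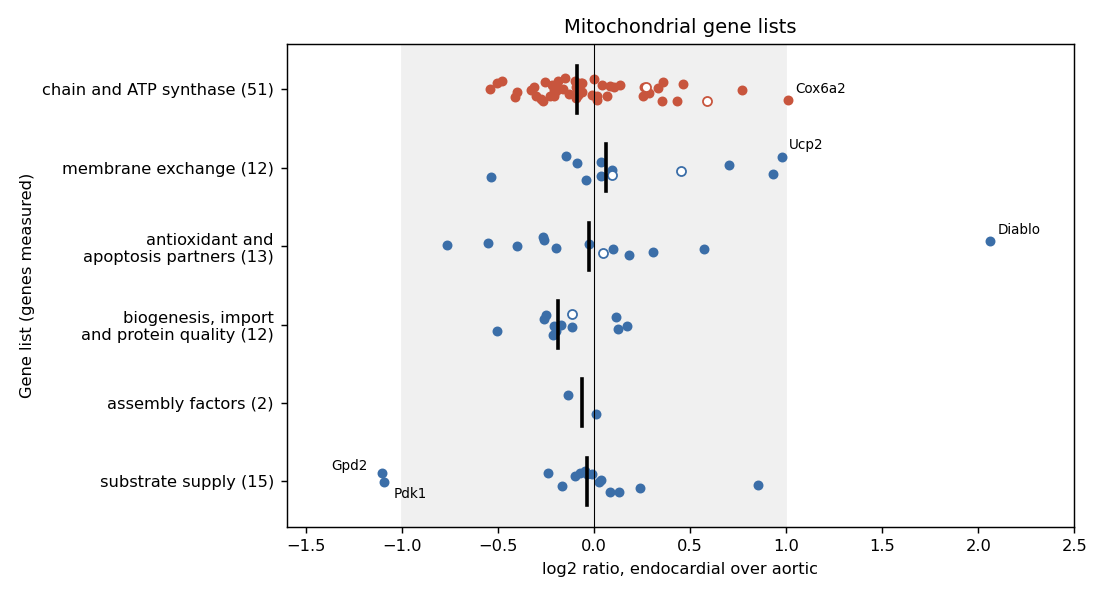
The log2 ratio, endocardial over aortic, of each measured gene (x axis) is drawn for the respiratory chain and ATP synthase (red) and for 5 lists of related mitochondrial genes (blue, y axis). Open circles rest at least in part on a value under the floor, black bars are medians and the shaded band marks under 2-fold; Diablo, Pdk1 and Gpd2 lie outside the band, as does Cox6a2 at 1.01 by a small margin.

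The labelled cell type was checked with 14 endothelial genes, of which 9 were on the array. Pecam1, Vwf, Kdr and Icam2 stayed below the floor in both cultures. Of the 5 measured, 2 in aortic and 1 in endocardial cells exceeded the control maximum. Thbd, thrombomodulin, had 3921 and 2848, and Nos3, the nitric oxide synthase, had 1396 and 1382, below the control maximum. Ace, the angiotensin-converting enzyme, was lower in endocardial cells (2297 and 1028, -1.16), where it was below the control maximum. The transcription factor Ets1 was higher (680 and 1720, 1.15), with 1 of its 2 probe sets under the floor in 1 culture and both values below the control maximum. Summed intensities of the 5 were 9121 in aortic and 8032 in endocardial cells, so these markers bear out the endothelial label only weakly. Of 7 measured smooth muscle genes, 6 exceeded the control maximum in each culture. Of 10 fibroblast genes, 10 did so in aortic and 9 in endocardial cells.

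Of 14 macrophage and leukocyte genes, 8 were measured, with summed intensities of 10349 in aortic and 50696 in endocardial cells. Lysozyme, Lyz2, made up most of the second sum (288 and 33619.5). Without it the sums were 9713 and 17077, with 2 and 6 of 7 genes above the control maximum. Of the 8, 5 were at least 2-fold higher in endocardial cells, against 5.93% of all measured genes: Lyz2, Ctss, Cd53, RT1-Da and Cd74. Their median aortic intensities were under the floor. Against the control maximum, Ctss (329 and 3376) was at least 1.94-fold higher, and Cd53, Cd74 and RT1-Da at least 1.15-, 1.09- and 1.02-fold. The leukocyte phosphatase Ptprc (-0.09) and the MHC class II chain RT1-Db1 (0.05) were close to level, and Cd14 was at 0.38. Summed intensities were 102040 and 158095 for 7 smooth muscle genes and 327488 and 269693 for 10 fibroblast genes. These sums hide differences of at least 2-fold in both directions, against 5.93% of all measured genes higher and 4.16% lower. Of the smooth muscle genes, Myl9 (8784 and 25455.5) and Itga8 (804 and 1858) were higher and Myh11 (2533 and 614) lower. Of the fibroblast genes, Postn (2026 and 15940) was higher, and Dcn (19147 and 986) and Lox (49118 and 17233) lower. The part of these cell types in the chain's values was not tested, and the arrays also differed in fluidics module and scan time, which cannot be told apart from origin.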

How the data were processed

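The deposited values were linear intensities, 1 per probe set and array; per the file headers, the arrays were of the type RG_U34A, and the summarising software was not stated in any source used. The 59 control probe sets were set aside and the other 8740 scaled to a shared 2% trimmed mean (factors 1.001 and 0.999). Values under the floor, the median of both arrays (635.4), were raised to it, and probe sets exceeding it on neither array were dropped. A gene's log2 ratio was the median over its kept probe sets. Symbols came from the platform annotation, looked up in RefSeq (GRCr8), which changed 0. No p-value was computed. The members and lists were chosen with earlier results of these data known. All measured members were named; of the mitochondrial lists, genes past 2-fold and those nearest 0, with further ones chosen after their values were seen. Of the cell type markers, those past 2-fold were named, with a few others chosen after their values were seen. Alternatives changed the scaling, the floor and the summary of probe sets, and 1 limited members to structural subunits. On simulated data, 200 of 200 genes changed by known amounts were recovered and 0 of 2543 unchanged genes passed 2-fold. Only bright genes were changed there, each by more than 2-fold, and the noise was set lower than the spread between probe sets of a gene here. The simulation thus checks the code and gives no measure of accuracy on these arrays. Python 3.11.15, pandas 2.3.3 and statsmodels 0.14.6 were used.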

Additional observations from a re-analysis of the deposited data

How the results depend on the processing

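The count of members at least 2-fold lower stayed at 0 under all 12 alternatives. The count at least 2-fold higher was 0 with quantile normalization, with a floor set at the 75th percentile or at the control maximum, with plain probe sets only and, chosen after seeing the data, with probe sets above 5000 on both arrays; it was 2 with no floor (Cox6a2 and Ndufv3). The SD over members was 0.25 with probe sets above 5000 and at most 0.36 elsewhere. The member median lay between -0.10 and -0.06, and the complex IV median was 0.49 with plain probe sets only. For the 29 members with 1 kept probe set, taking the brightest probe set or the mean returned the main value, so many values could not move. Of 496 values of single members under alternatives, 486 moved by less than the SD between probe sets of a gene (0.39), and 10 moved by more. Those that moved by more were Ndufaf3 (5 of the 10), Ndufb6, Ndufb11, Ndufv3 and Cox6a2. All 10 came with a changed floor or a changed choice or summary of probe sets, and none with a change of scaling. Of 51 members, 11 had the other sign under at least 1 alternative (Ndufaf3, Ndufb8, Ndufb5, Ndufs4, Ndufc1, Ndufs8, Uqcrfs1, Cox5b, Cox6a1, Atp5f1d and Atp5pd), so the counts above and below 0 are not fixed. Leaving out a replicate was not possible with 1 array per group. No paired analysis was possible because each group has 1 array. Low signal over background limits Cox6a2, Cox6c, Ndufv3, Ndufs1 and Ndufaf3.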

Other observations

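Ndufa4l2, a paralogue of the complex IV gene Ndufa4 that is induced in low oxygen and was left out of the members, had a median intensity of 26926 in aortic and 1347 in endocardial cells over 5 probe sets. Cox4i2, the complex IV isoform also known for expression in low oxygen, stood on the other side, at 4006 and 6834 (log2 ratio 0.77), and Ndufa4 itself was at 11748 and 14019 (0.26). Pdk1, another gene known for induction in low oxygen, had 2332 and 1094. No explanation of these values was tested.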
